A study of Mus musculus and Homo sapiens with 12 samples.

Results

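The genes described here are the 4 fibroblast growth factor (FGF) receptors with a tyrosine kinase (FGFR1, FGFR2, FGFR3 and FGFR4), the receptor FGFRL1, which lacks that kinase, the secreted ligands FGF1, FGF2 and FGF5, and the intracellular factor FGF14. They were taken by name: the 9 human genes are 9 of the 62663 in the human annotation (20033 of them protein-coding), and the mouse genes of the same names are 9 of 49943 (21887 protein-coding). Histone butyrylation (Kbu) and acetylation (Kac) at histone H3 lysine 18 and histone H4 lysine 12 were profiled by CUT&Tag, in which an antibody tethers a transposase that cuts and tags the DNA beside the mark. The 12 libraries fall into 6 groups of 2. H3K18bu and H4K12bu were each profiled in 2 libraries of CCD841, a human colorectal line that the study uses as its normal cells. All 4 were treated with 1 mM sodium butyrate (NaBu) for 12 h per the methods and 12 to 16 h per the labels. The other 8 libraries, 2 for each mark, came from the large intestine of male CETP-ApoB-100 transgenic mice, whose age is not given in the sources used here. Whether libraries of different marks share a mouse is not settled. The 4 mouse Kbu libraries carry the label of a high fat, high sucrose diet with 5% arabinoxylan, a fermentable plant fiber, while the 4 Kac libraries carry the label of that diet without the fiber. The methods instead describe a control group on low fat chow beside a high fat, high sucrose group that later received the fiber, so the diet of the Kac mice is uncertain, and in either case the acyl group and the diet cannot be told apart between them. No untreated CCD841 library, and no Kac library of CCD841, was analysed here. The labels number the replicates without saying which came from separate cultures or mice. The p-values, all from the mouse libraries, therefore measure the spread between these libraries, which may be technical.

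FGFs are secreted factors that bind the extracellular part of an FGF receptor together with heparan sulfate. The receptors then phosphorylate adaptor proteins, which switch on the RAS and MAP kinase cascade, and the Sprouty, SPRED and DUSP proteins feed back on it. In the intestine FGF signals between the epithelium and the mesenchyme guide growth, renewal and repair. FGFRL1 binds ligands but cannot signal through a kinase of its own, and FGF14 belongs to the FGF homologous factors, which stay inside the cell, bind voltage-gated sodium channels and are best known from neurons.

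The DNA at the regions the results turn on is printed here in the 5′ to 3′ direction, in lower case, with capitals marking matches on either strand to 4 motifs: AP-1 (TGANTCA), KLF/SP (GGGNGGGG), SMAD (CAGACA) and ETS (GGAAGT). The start-site sequences are shown because a mark lay across or against the start of the gene. FGF5 (GRCh38, chr4:80266389-80266638, + strand, the 250 bases before the most 5′ start) lay wholly inside an H3K18bu region of CCD841. The peak of replicate 1 covered it whole, and that of replicate 2 ended at 80266469. FGF1 (GRCh38, chr5:142686496-142686745, − strand, the 250 bases before an alternative start inside the gene) overlapped H3K18bu peaks of both replicates of CCD841. It overlapped an H4K12bu region through the peak of replicate 1 alone. Fgfrl1 (RefSeq, GRCm38.p6, chr5:108693979-108694228, + strand, 250 bases before the start) lay inside a region of both H4K12bu and H3K18ac in the mouse. The peaks of H4K12bu replicate 1 and H3K18ac replicate 2 began within it, at 108694055 and 108694049.
FGF5 upstream: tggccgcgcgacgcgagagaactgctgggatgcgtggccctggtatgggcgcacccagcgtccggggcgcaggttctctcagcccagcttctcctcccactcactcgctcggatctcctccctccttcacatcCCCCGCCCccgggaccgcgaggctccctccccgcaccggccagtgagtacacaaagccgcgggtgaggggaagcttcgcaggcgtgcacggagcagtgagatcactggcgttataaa
FGF1 alternative start: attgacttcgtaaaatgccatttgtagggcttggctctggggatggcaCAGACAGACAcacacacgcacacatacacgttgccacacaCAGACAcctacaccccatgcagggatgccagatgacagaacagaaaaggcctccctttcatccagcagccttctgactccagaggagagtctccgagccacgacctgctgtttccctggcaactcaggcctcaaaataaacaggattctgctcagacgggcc
Fgfrl1 upstream, mouse: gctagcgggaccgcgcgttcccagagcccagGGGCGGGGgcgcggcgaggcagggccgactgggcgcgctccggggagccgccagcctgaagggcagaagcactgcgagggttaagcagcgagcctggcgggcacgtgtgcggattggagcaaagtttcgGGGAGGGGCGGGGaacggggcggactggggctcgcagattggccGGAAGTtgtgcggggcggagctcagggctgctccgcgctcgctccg

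FGF5 held 1 KLF/SP match, and 41.4% of the 20033 human protein-coding genes held at least 1 in the same 250 bases. The FGF1 window held 3 SMAD matches, of which the leading pair overlap by 2 bases, against at least 1 match in 12.4% of the human windows. Mouse Fgfrl1 held 3 KLF/SP matches and 1 ETS match, and these motifs stood in 30.8% and 19.7% of 32851 mouse promoter windows of the same length. The FGF5 and mouse Fgfrl1 windows had a GC content of 67.2% and 73.6%. No AP-1 match lay in any of the 3 windows, as in most promoters, since 5.46% of the human and 6.75% of the mouse windows held one.

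The sequences that follow are 151 bases around a summit in the strongest region of the named mark at its gene, among those found in both replicates of CCD841 and judged by the weaker replicate. The summit is that of the replicate with the higher −log10 p, replicate 2 for FGFR4 and replicate 1 for the other genes. The windows lie in an intron of FGFR3, the downstream flank of FGFR4, an intron of FGFRL1 and an intron of FGF14. All are given on the + strand of GRCh38, at chr4:1797235-1797385 (FGFR3), chr5:177098799-177098949 (FGFR4), chr4:1015793-1015943 (FGFRL1) and chr13:102236748-102236898 (FGF14).
FGFR3 H3K18bu summit: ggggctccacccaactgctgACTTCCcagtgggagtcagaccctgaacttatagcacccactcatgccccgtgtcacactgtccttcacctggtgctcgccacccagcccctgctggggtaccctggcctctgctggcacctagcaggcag
FGFR4 H3K18bu summit: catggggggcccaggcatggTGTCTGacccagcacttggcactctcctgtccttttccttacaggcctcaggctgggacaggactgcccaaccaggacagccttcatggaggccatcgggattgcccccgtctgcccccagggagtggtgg
FGFRL1 H4K12bu summit: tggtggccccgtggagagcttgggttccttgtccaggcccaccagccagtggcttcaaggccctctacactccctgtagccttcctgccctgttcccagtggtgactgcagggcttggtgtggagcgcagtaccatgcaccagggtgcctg
FGF14 H4K12bu summit: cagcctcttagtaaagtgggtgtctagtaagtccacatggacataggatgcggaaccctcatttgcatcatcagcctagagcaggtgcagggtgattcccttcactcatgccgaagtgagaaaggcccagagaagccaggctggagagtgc

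The FGFR3 summit held 1 ETS match and the FGFR4 summit 1 SMAD match. Over all 108536 H3K18bu regions found in both replicates, 9.63% of the windows of this length held an ETS match and 13.9% a SMAD match. The FGFRL1 and FGF14 windows lay outside the replicate 2 peaks of their regions (1016158 to 1016430 and 102237058 to 102237375) and held none of the 4 motifs. These matches describe the letters in the windows and say nothing of which factors were bound.

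A region is a stretch in which the peak calls of 1 library overlap, and a region was counted for a gene where it touched the gene or the 5 kb on either side. A region found in both replicates is one in which the regions of the 2 libraries of a mark overlap by at least 1 bp. The CCD841 lists held 207129 to 282656 regions in a library, with 108536 H3K18bu and 90476 H4K12bu regions found in both replicates. The mouse Kbu lists held 50645 to 96332 regions and the Kac lists 297745 to 299480. Each peak comes with a fold enrichment over the local background and a −log10 p and q from the peak caller. The files carry no read totals. The number of read ends stacked at a summit, the pileup, was therefore solved from the fold enrichment and p of each peak. A fragment has 2 such ends. The median pileup was 15 and 12 in the H3K18bu and 15 and 7 in the H4K12bu libraries of CCD841, but 1 in 7 of the 8 mouse libraries and 2 in H4K12ac replicate 2. In replicate 2 of CCD841 H4K12bu, 54.7% of regions had q below 0.05, against 100% in the other 3 libraries of the line.

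Markers of colon epithelium and of other cell types were marked in part. In CCD841, 6 of 10 colon epithelium markers had an H3K18bu region and 5 an H4K12bu region found in both replicates, fewer than the 70% and 71.2% of all protein-coding genes that did. KRT8, a simple epithelial keratin, had 8 and 7, CDX1, an intestinal transcription factor, 5 and 2, the brush border gene VIL1 5 and 1, and EPCAM 5 and 1, while the colon markers KRT20, CLDN3 and CLDN7 had none of either mark. Of the fibroblast markers, 9 of 10 carried H3K18bu and 6 H4K12bu, and of the smooth muscle markers 4 and 5 of 5, with ACTA2, smooth muscle actin, at 9 and 8 regions. Immune markers carried the marks in 4 and 3 of 5 genes and neuron and glia markers in 2 and 2 of 5. These counts do not settle the cell type of the line. In the mouse intestine, where 17.7% of protein-coding genes had H3K18bu, 29.7% H4K12bu, 52.2% H3K18ac and 55.1% H4K12ac, H3K18bu lay on 7 of 10 colon epithelium markers and on 0 of 10 fibroblast, 0 of 5 smooth muscle, 1 of 5 immune and 0 of 5 neuron and glia markers. H4K12bu lay on 5, 2, 0, 0 and 0 of these, H3K18ac on 9, 2, 3, 4 and 1, and H4K12ac on 6, 4, 3, 1 and 3. The part these other cell types have in the FGF results was not tested, and in the tissue fewer cells with a mark and less of the mark in each cell cannot be told apart.

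In butyrate-treated CCD841 cells most of the FGF genes carried butyrylation. H3K18bu was found in both replicates at 7 of the 9 genes, against 70% of protein-coding genes, and H4K12bu at 8, against 71.2%, so both counts were near the background. Both marks were found at 7 genes. The genes held 46 H3K18bu and 48 H4K12bu regions. By the median of genes, the density was above that of the typical gene. The median of the 9 genes was 0.0858 H3K18bu and 0.0777 H4K12bu regions per kb. The median protein-coding gene, taken with the genes that had no region, had 0.0373 and 0.0468. Above it lay 7 of the 9 genes for each mark. Over all protein-coding windows together the density was 0.0478 and 0.0515 per kb. The 9 windows together lay below it for both marks, with FGF14 alone spanning 702 kb. FGFR2 was without a region of either mark in both replicates. With 2 libraries for a mark, an exact permutation test between the marks cannot give a p below 0.333, so none was made and the values are a description.

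**Figure D1:**
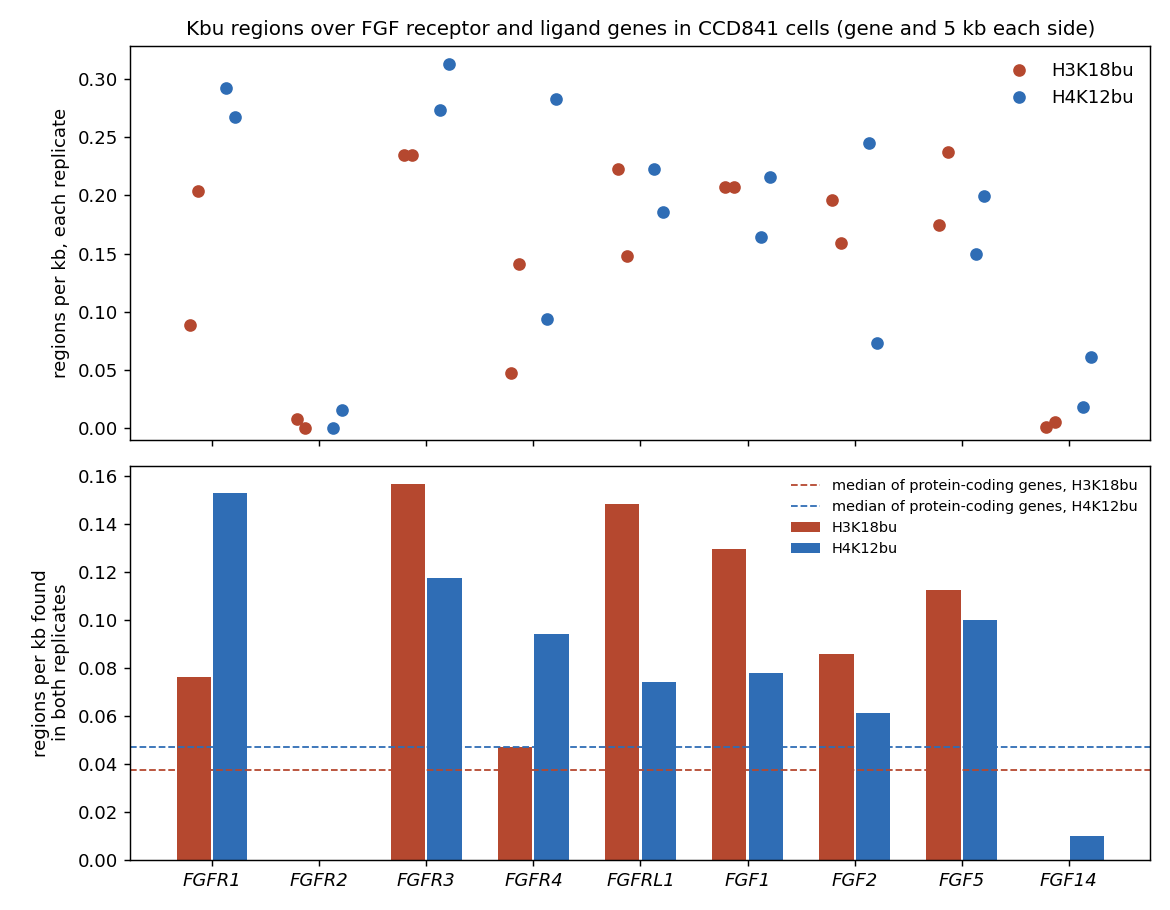
Regions per kb of each gene and its 5 kb flanks in CCD841, with H3K18bu and H4K12bu side by side, with each point 1 of the 2 libraries of a mark in the upper panel, and bars from 0 for regions found in both replicates and dashed lines for the median of all protein-coding genes in the lower. In the bars FGFR3 had the highest H3K18bu density at 0.156 per kb and FGFR1 the highest H4K12bu density at 0.153, while FGFR2 was at 0 for both.

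Among the receptors, FGFR1, the main receptor of mesenchymal cells, carried 7 and 16 H3K18bu regions in the 2 replicates and 23 and 21 H4K12bu regions. The H4K12bu counts both lay above both H3K18bu counts. Found in both replicates were 6 H3K18bu and 12 H4K12bu regions, 0.0763 and 0.153 per kb, which put FGFR1 above 75.7% and 92.9% of protein-coding genes. Of the H4K12bu regions 5 were exonic and 4 intronic, and 1 lay beside an alternative start site. The strongest H3K18bu region lay at −3278 bp from the most 5′ start, with a −log10 p of 18.8 and 12.4 in the 2 replicates. Of the regions of the gene, 2 of H3K18bu and 3 of H4K12bu also lay over the neighbouring gene LETM2, and the counts cannot be split between them.

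FGFR2, whose epithelial isoform is the receptor for FGF7 and FGF10 from the mesenchyme, was the one receptor of the 5 without a region shared by replicates. Across its 130 kb window it had 1 and 0 H3K18bu regions and 0 and 2 H4K12bu regions. FGF1, with a window of 116 kb, had 24 and 24 H3K18bu regions in the same libraries.

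FGFR3, the receptor best known for restraining bone growth and also made by intestinal epithelium (chromosome 4, 1793293 to 1808872, + strand), carried 6 and 6 H3K18bu regions and 7 and 8 H4K12bu regions. Of these 4 and 3 were found in both replicates, and its H3K18bu density of 0.156 per kb lay above 95.8% of protein-coding genes and its H4K12bu density of 0.117 above 84.7%. The strongest H3K18bu region was intronic, at 1797209 to 1797355 and 3989 bp into the gene, with a fold enrichment of 5.12 and 4.51 and a pileup of 27 and 19. A second H3K18bu region stood in the same part of the gene at 1797635 to 1797912. The marks met at 1 place, in the downstream flank, where an H3K18bu region at 1809779 to 1810150 overlapped an H4K12bu region at 1809996 to 1810174.

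FGFR4, the receptor for the gut hormone FGF19 in liver (chromosome 5, 177086905 to 177098144, + strand), carried 1 and 3 H3K18bu and 2 and 6 H4K12bu regions. Its marks gathered just past the end of the gene. The H3K18bu region at 177098347 to 177099142 had a fold enrichment of 5.21 and 6.39 and a pileup of 27 and 26, and the H4K12bu region at 177098163 to 177099086 overlapped it with 4.34 and 4.30. The remaining H4K12bu region was exonic, and no region of either mark found in both replicates lay within 1 kb of an FGFR4 start site. The densities of 0.0471 and 0.0942 per kb were above those of 57.4% and 76.6% of protein-coding genes.

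FGFRL1, the receptor without a kinase (chromosome 4, 1009936 to 1026898, + strand), was the gene in which the 2 marks were most plainly apart in place. It carried 6 and 4 H3K18bu and 6 and 5 H4K12bu regions. All 4 H3K18bu regions found in both replicates lay in the downstream flank, 18103 to 19899 bp from the start, and 2 of them lay over the long noncoding RNA gene ENSG00000250259. Both H4K12bu regions lay in introns, and 0 regions of the marks overlapped. The H4K12bu region at 1015812 to 1016507 reached a −log10 p of 26.5 in replicate 1, the highest of any FGF region of that mark, but 6.74 in replicate 2, with a pileup of 53 and 14. The H3K18bu density of 0.148 per kb was above that of 95.1% of protein-coding genes and rests on the flank alone, and the H4K12bu density of 0.0742 was above that of 66.3%.

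FGF1, a ligand that can bind all the FGF receptors (chromosome 5, 142592178 to 142698070, − strand), carried the most H3K18bu regions of the 9 genes, 24 and 24, beside 19 and 25 H4K12bu regions. Found in both replicates were 15 and 9, or 0.129 and 0.0777 per kb, above 92.4% and 68.3% of protein-coding genes. Of the 15 H3K18bu regions 5 lay within 1 kb of one of its several start sites, 8 in introns, 1 in an exon and 1 upstream. The 2 marks overlapped at 7 regions. The strongest H3K18bu region, at 142644696 to 142645552 beside an internal start, had a fold enrichment of 7.97 and 9.28 and a −log10 p of 20.8 and 25.1. At the alternative start printed above, H3K18bu regions at 142685603 to 142686496 and at 142686574 to 142686968 were accompanied by an H4K12bu region at 142686541 to 142687349, the strongest H4K12bu region of the gene as judged by its weaker replicate (fold enrichment 6.08 and 5.52). The replicate 2 peak of that H4K12bu region, at 142687132 to 142687343, lay outside the printed bases. The long noncoding RNA gene SPRY4-AS1 runs over 10 of the 15 H3K18bu regions, and the assay does not assign a mark to a strand.

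FGF2, basic FGF (chromosome 4, 122826682 to 122898236, + strand), carried 16 and 13 H3K18bu regions and 20 and 6 H4K12bu regions. The H4K12bu replicates were far apart, and replicate 1 lay above and replicate 2 below both H3K18bu counts. Of 7 H3K18bu regions found in both replicates, 1 lay at a start site, 5 in introns and 1 in the downstream flank, and of 5 H4K12bu regions 2 were intronic. The marks overlapped at 2 places, of which 1 was in the downstream flank and lies over NUDT6, the gene on the opposite strand.

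FGF5, known as a stop signal for hair growth (chromosome 4, 80266639 to 80336680, + strand), carried 14 and 19 H3K18bu and 12 and 16 H4K12bu regions, and 9 and 8 were found in both replicates. An H3K18bu region lay over its start, at 80266378 to 80266804, with a fold enrichment of 6.01 and 3.88 and a pileup of 34 and 15, and another followed at 80266903 to 80267136. The replicate 2 peak of the first of these ended at 80266469, before the start. H4K12bu was not found in both replicates within 1 kb of an FGF5 start: all 8 of its regions were intronic, the nearest 12323 bp into the gene. The marks overlapped at 4 intronic regions. The highest H4K12bu fold enrichment of the gene stood at 80302621 to 80303373, 9.58 in replicate 1 and 4.53 in replicate 2. The densities of 0.112 and 0.0999 per kb were above those of 88.8% and 78.8% of protein-coding genes.

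FGF14 (chromosome 13, 101710804 to 102402457, − strand, a window of 702 kb) carried H4K12bu but no H3K18bu in both replicates. H3K18bu gave 1 and 4 regions, none of them shared, and H4K12bu 13 and 43, of which 7 were shared. All 7 were intronic, 89410 to 351211 bp from the most 5′ start, and 2 lay over the intronic RNA gene FGF14-IT1. The strongest, at 102236458 to 102237500, had a fold enrichment of 8.18 and 5.92 and a pileup of 23 and 12. Per kb the gene was sparse, at 0.00998 H4K12bu regions, above 31.2% of protein-coding genes.

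H3K18bu lay within 1 kb of a start in both replicates at 3 of the 9 genes, FGF1, FGF2 and FGF5, against 39.6% of protein-coding genes. H4K12bu did so at 2 genes, FGFR1 and FGF1, against 24.7%. Of all 46 H3K18bu regions 17.4% were at a start site, 52.2% intronic and 19.6% in the downstream flank, while 13.5%, 67.9% and 7.20% of the regions of all protein-coding genes were. Of the 48 H4K12bu regions 8.33% were at a start site, 16.7% exonic and 56.2% intronic, against 7.98%, 15.4% and 66.3%. The marks overlapped at 43.5% of the H3K18bu and 41.7% of the H4K12bu regions, near the 40.8% and 38.4% of all protein-coding genes.

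**Figure D2:**
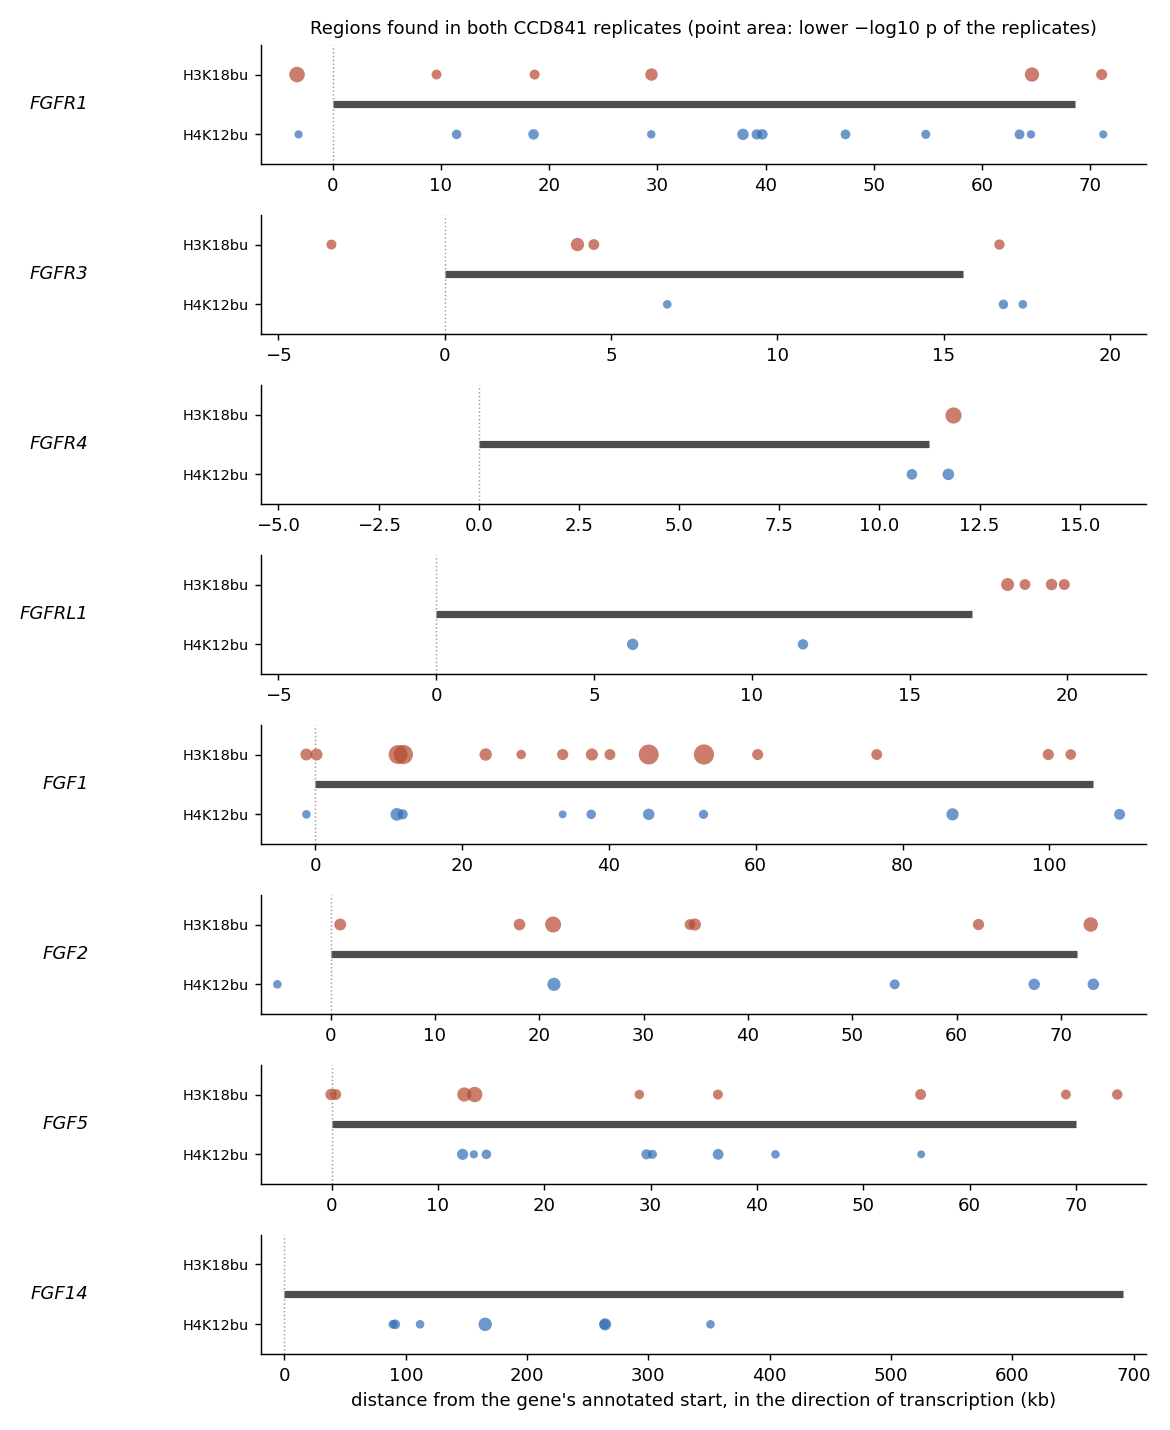
Position of each region found in both replicates of CCD841, drawn for each gene along the distance from its most 5′ start, with H3K18bu above and H4K12bu below the grey bar of the gene and the area of a point giving the lower −log10 p of the replicates. FGFR2 had none, the 4 H3K18bu regions of FGFRL1 lie past the end of that gene and its 2 H4K12bu regions inside it, and the 7 FGF14 regions are all of H4K12bu.

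The rest of the pathway was set beside these genes with lists of 75 human genes in all, grouped by role, which include the 5 receptors and FGF14 again. Of the 75, 62 (82.7%) carried H3K18bu and 52 (69.3%) H4K12bu in both replicates, against 70% and 71.2% of protein-coding genes. At a start site 28 (37.3%) and 15 (20%) carried them, against 39.6% and 24.7%. The secreted ligands outside the 9 genes differed most between the marks, with 10 of 15 carrying H3K18bu and 2 of 15 H4K12bu. FGF18, a ligand of FGFR3, had 8 and 6 regions, FGF19, the ileal hormone of bile acid control, had 2 and 0, and FGF7, a mesenchymal growth factor for epithelium, had 2 and 2. Receptors and co-receptors carried the marks in 8 and 7 of 10 genes. Among them FLRT1, a transmembrane partner of the receptors, had 12 and 14 regions.

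All 4 FGF homologous factors carried H4K12bu and 2 of them H3K18bu, with 15 and 2 regions at FGF13 and 1 and 1 at FGF11. Binding proteins and heparan sulfate carriers were marked in 11 and 9 of 11 genes, with the highest densities per kb at the glypican gene GPC1 (8 and 7 regions) and the syndecan genes SDC3 (5 and 10) and SDC1 (5 and 6). Adaptors and kinases were marked in 14 and 16 of 17 genes, with 9 and 10 regions at PLCG1, the phospholipase that receptors recruit, 13 and 10 at PIK3R1, the regulatory subunit of PI3 kinase, and 0 and 2 at the small HRAS gene. Feedback inhibitors were marked in 12 and 10 of 12 genes, with 13 and 15 regions at SPRED2, 2 and 0 at the Sprouty gene SPRY2 and 1 and 2 at DUSP6. At the targets the counts were 5 and 4 of 6, and CCND1, which encodes cyclin D1, had 5 and 6 regions in a window of 23.3 kb, densities of 0.214 and 0.257 per kb that were above those of 99.0% and 99.4% of protein-coding genes. EGR1, an immediate early transcription factor, had 2 and 0 regions, and ETV5, an ETS factor, 6 and 8. These lists are described by their counts, and none was tested against other genes.

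**Figure D3:**
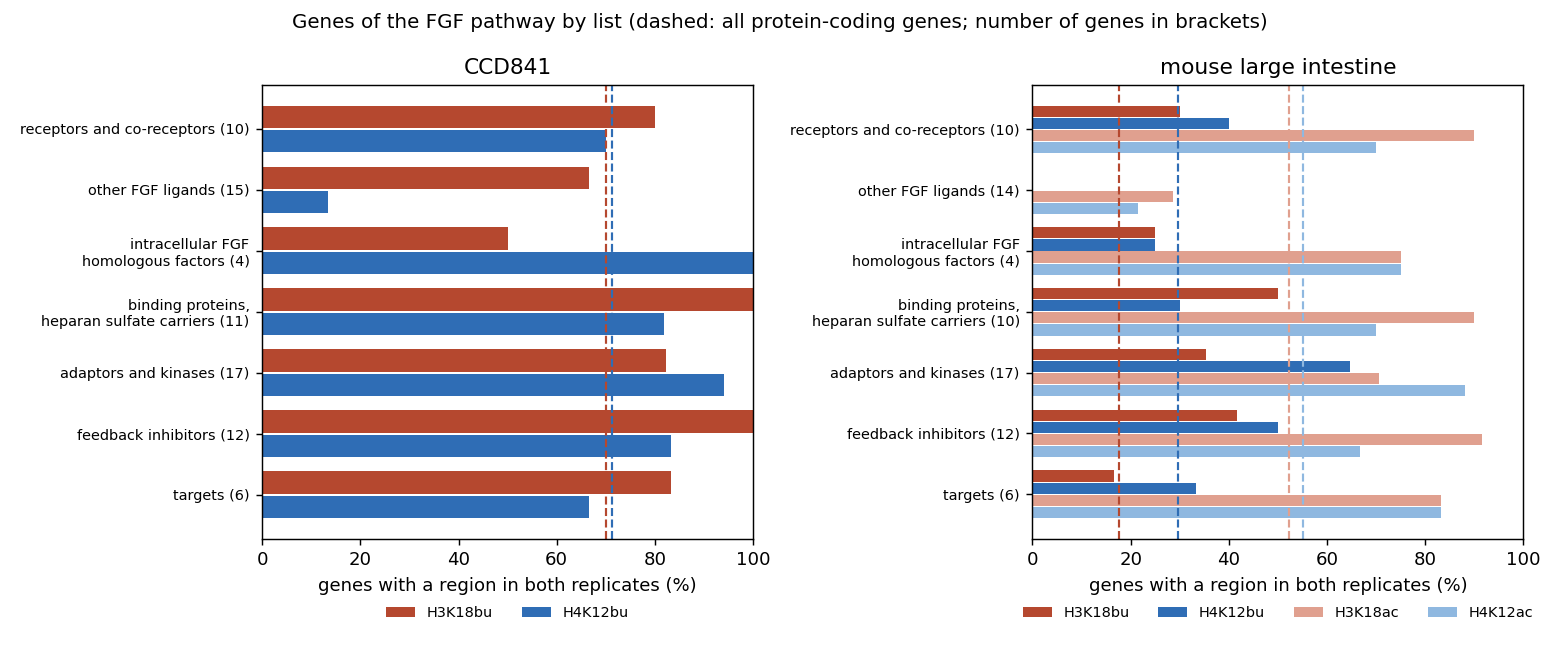
Percent of the genes of each pathway list with a region found in both replicates, for the 2 marks of CCD841 and the 4 of the mouse intestine. In CCD841 the other FGF ligands carried H3K18bu in 10 of 15 genes and H4K12bu in 2 of 15, and in the mouse 0 of 14 carried either Kbu mark.

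In the mouse large intestine most Kbu regions had few read ends stacked at the summit. The lowest local background solved from the peaks of a library, which can be no lower than its depth sets, was 0.788 to 1.55 read ends in CCD841. It was 0.0608 to 0.147 in the mouse Kac libraries and 0.0146 in each mouse Kbu library. The Kbu value was the same although the Kbu lists held 50645 to 96332 regions, so it bounds their depth from above and does not measure it. Depth thus differed between the acyl groups as well, and its part in the comparison was not tested. Over the 9 genes the Kbu libraries held 29, 22, 29 and 45 regions (H3K18bu replicates 1 and 2, then H4K12bu replicates 1 and 2), and 88.9% to 100% of these had a pileup of 1. The Kac libraries held 110, 131, 66 and 123 (H3K18ac, then H4K12ac), with a pileup of 1 in 64.5%, 47.3%, 3.03% and 0%. Over the whole lists that share was 89.18% to 91.38% in Kbu, and 72.06%, 51.97%, 52.84% and 12.83% in Kac. The share at the 9 genes was thus far below that of the list in H4K12ac replicate 1, and the cause was not tested. At q below 0.05 the Kbu libraries held 1, 0, 1 and 0 of the regions at the 9 genes and the Kac libraries 5, 2, 1 and 23. Over the whole lists 1.47% to 2.33% of Kbu and 4.96% to 19.98% of Kac regions had such a q. A region with a pileup of 1 has a single read end at its summit, the fewest that can be listed.

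H3K18bu was found in both replicates at 2 of the 9 mouse genes (Fgfr2 and Fgf1), against 17.7% of protein-coding genes, and H4K12bu at 3 (Fgfr4, Fgfrl1 and Fgf1), against 29.7%. H3K18ac was found at 6, against 52.2%, and H4K12ac at 4, against 55.1%. No FGF gene had H3K18bu within 1 kb of a start, where 7.21% of protein-coding genes did, and 1 had H4K12bu there, against 16.9%. For H3K18ac the start-site count was 2, against 24.4%, and for H4K12ac 0, against 28.1%. Fgfr3, Fgf2 and Fgf5 had no region of any of the 4 marks in both replicates.

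Fgfrl1 (chromosome 5, 108694229 to 108706950, + strand) had the best supported Kbu region found in both replicates of a mark among the 9 genes. Regions counted here are a different measure from the differential binding of read counts against Kac by which the study names Fgfrl1 for H4K12bu. Fgfrl1 carried 3 and 2 H3K18bu, 1 and 5 H4K12bu, 2 and 4 H3K18ac, and 6 and 6 H4K12ac regions in the replicates. The H4K12bu region at 108693886 to 108694246, over the start site, had a fold enrichment of 3.83 and 2.91, a −log10 p of 6.83 and 5.39 and a pileup of 3 and 2. It was the only Kbu region of the family found in both replicates with a pileup of at least 2 in each. An H3K18ac region at 108693830 to 108694242 overlapped it, with a fold enrichment of 4.75 and 2.99 and a pileup of 5 and 3. Both contain the upstream sequence printed above and both touch the long noncoding RNA gene Gm42151, so a mark at this shared start cannot be given to either gene. An H4K12ac region lay at −2482 bp from the start.

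Fgf14 (chromosome 14, 123974441 to 124677686, − strand) had no Kbu region found in both replicates. The study names it for H3K18bu against Kac, again from read counts and not from regions shared by replicates. For Fgf14 the H3K18bu libraries held 3 and 0 regions and the H4K12bu libraries 4 and 5. H3K18ac gave 21 and 63 regions and H4K12ac 13 and 32, and 3 of each mark were found in both replicates, those of H3K18ac with a pileup of 1 in each replicate and those of H4K12ac with a pileup of 2 or 3. The other regions were seen in 1 replicate of their mark, across a window of 713 kb. All 21 H3K18ac regions of replicate 1 and 62 of the 63 of replicate 2 had a pileup of 1.

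Fgfr2 (chromosome 7, 130162451 to 130266808, − strand), which had no region shared by replicates in CCD841, carried 6 and 7 H3K18bu and 4 and 8 H4K12bu regions in the mouse, beside 14 and 19 H3K18ac and 8 and 21 H4K12ac regions. The H3K18bu region found in both replicates, at 130184996 to 130185242, had a pileup of 1 in each. Fgfr4 (chromosome 13, 55152818 to 55168759, + strand) had 2 H4K12bu regions, both in the flanks and both with a pileup of 1 and 1. In H3K18bu replicate 1 the gene had a stronger region in its upstream flank, at 55149847 to 55150119, where 4 read ends were stacked (fold enrichment 4.72, −log10 p 8.27), which replicate 2 lacked. Each H4K12bu region overlapped an H3K18ac region, and the downstream one, at 55172501 to 55172750, an H4K12ac region as well. At Fgfr1 only H3K18ac was found in both replicates, with 3 regions. At Fgf1 1 H3K18bu, 1 H4K12bu and 7 H3K18ac regions were found, and all 9 also lay over Arhgap26, the gene that overlaps it.

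Because a Kac list held several times as many regions as a Kbu list, each gene's regions were taken per 100000 regions of the library before Kbu and Kac were compared. The scale gives a gene's share of the regions of a library, not an amount of the mark. For Fgfr2 the 4 Kbu libraries stood at 9.87, 13.8, 7.86 and 8.30 and the 4 Kac libraries at 4.69, 6.37, 2.67 and 7.05. Every Kbu library lay above every Kac library. The means were 9.96 ± 2.71 and 5.20 ± 1.95 (SD, n = 4 each), and the two-sided exact permutation test gave p = 0.0286, the smallest that 4 against 4 allows, and an adjusted p of 0.209 over 45743 genes. Fgfr2 was the 1 gene of the 9 that was higher in Kbu without overlap, as were 8.12% of all genes tested, and 0 of the 9 were lower without overlap, as were 5.56%. Over regions with a pileup of at least 2, taken per 100000 of such regions, Kbu minus Kac was −2.40, while over the same number of strongest regions of each library it was 4.44. The H3K18 and H4K12 libraries of a condition may come from the same mice, so that the 4 values of a group may not be independent and the p may be too small. No gene of the 45743 passed an adjusted p of 0.05, with 6257 (13.7%) at an unadjusted exact p under 0.05. With 0.0286 the smallest exact permutation p, passing would need most of the 45743 genes at that minimum. The adjusted p therefore cannot decide on a single gene.

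For Fgfrl1 the Kbu libraries stood at 4.94, 3.95, 1.96 and 5.19 and the Kac libraries at 0.670, 1.34, 2.00 and 2.02. The groups overlapped through the H4K12bu replicate 1 library. The difference of means was 2.50, from 4.01 ± 1.47 to 1.51 ± 0.641 (SD, n = 4 each), with an exact two-sided permutation p of 0.0857 and an adjusted p of 0.425. It was 5.20 over regions with a pileup of at least 2. Over peaks with q below 0.05 it was 28.9, where H4K12bu replicate 1 held 1 region. By the percent of the window covered, which is not scaled to the length of a list, the direction turned, to −0.509 percentage points. Fgf14 stood at 4.94, 0, 7.86 and 5.19 in Kbu and at 7.03, 21.1, 4.34 and 10.7 in Kac, and the groups overlapped. Its difference was −6.31, with an exact permutation p of 0.20 and an adjusted p of 0.566 (n = 4 each), and −2.88 without H3K18ac replicate 2. Over the same number of strongest regions of each library the direction turned, to 0.494. For neither gene did the difference between the acyl groups pass the test. The test pools both residues and compares shares of a list, so it does not test the study's result for either gene.

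Fgf1 had the highest mean share of the 9 genes in Kbu, with 23.0, 13.8, 17.7 and 6.23 in Kbu against 9.38, 6.70, 3.34 and 7.72 in Kac. The lowest Kbu library, H4K12bu replicate 2, lay inside the Kac range, and the direction turned to −6.00 over peaks with q below 0.05 and to −11.7 over regions with a pileup of at least 2. For Fgfr4 the Kbu values were 1.65, 7.90, 5.89 and 6.23 and the Kac values 1.67, 2.68, 2.34 and 2.02, and the H3K18bu replicate 1 library alone lay below the Kac range. Exact permutation p was 0.114 for Fgf1 and 0.143 for Fgfr4 (n = 4 each, adjusted p 0.455 for both). The means of Fgfr1, Fgfr3, Fgf2 and Fgf5 differed by −1.49, 1.08, 0.492 and 0.0081, with overlapping groups and exact permutation p of 0.343 to 1. Leaving out 1 library moved Fgfr1 between −2.33 and −0.598 and Fgfr3 between 0.115 and 2.08, and it turned Fgf2 (−0.247 to 1.17) and Fgf5 (−0.251 to 0.148). At a pileup of at least 2 Fgfr3 turned to −2.42 (exact permutation p = 0.0286), Fgf2 to −0.775 and Fgf5 to −0.0964. Over the same number of strongest regions Fgfr3, Fgf2 and Fgf5 stood at 1.97, 2.47 and 0.494.

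**Figure D4:**
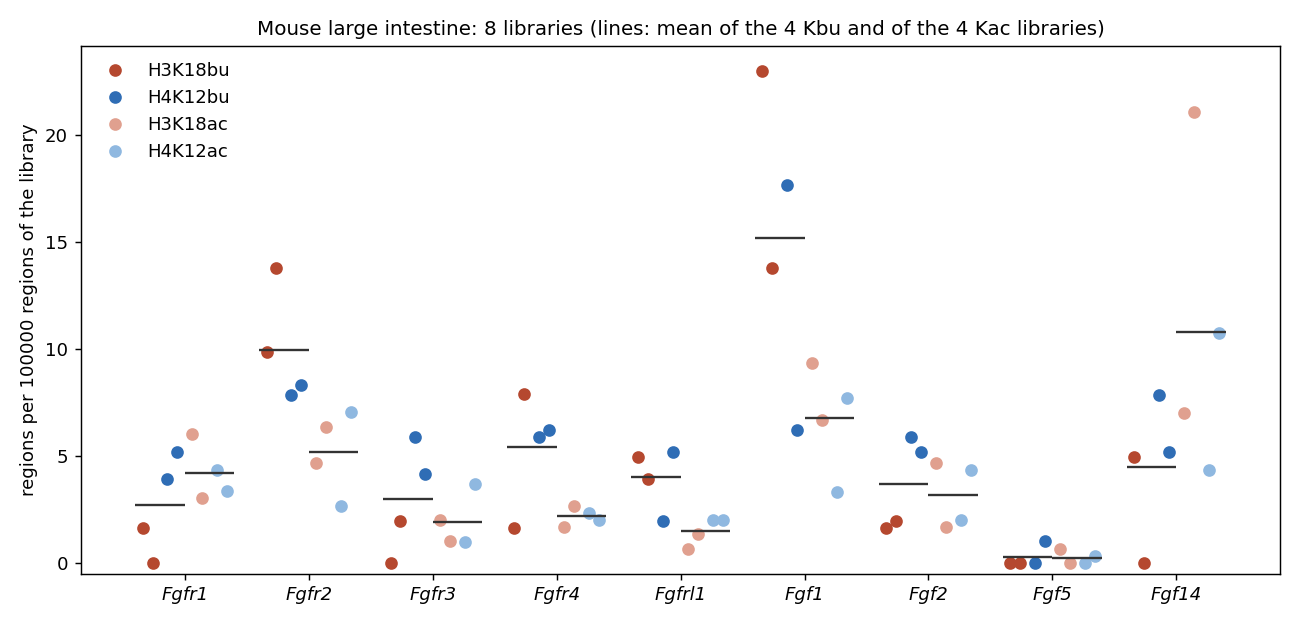
Regions per 100000 regions of the library for each of the 9 genes in the 8 mouse libraries, with the marks in colour, 1 point a library, and a line at the mean of the 4 Kbu (left) and of the 4 Kac libraries (right). The 4 Kbu points of Fgfr2 (7.86 to 13.8) lie above its 4 Kac points (2.67 to 7.05), and the groups of the other 8 genes overlap.

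To see which genes shared the pattern of the genes named for mouse Kbu, genes within 1.5 times their window length were ranked by the mean absolute difference over the 8 libraries in regions per 100 kb and 100000 regions. The nearest to Fgfrl1 among 7858 genes were Slc27a4, a fatty acid transporter (2.04), Siah2, a ubiquitin ligase (2.24), and Slc45a3 (2.3). The nearest to Fgf14 among 209 were the neuronal genes Grm5, a glutamate receptor (0.497), Cadm2, an adhesion molecule (0.518), and Pcdh9, a protocadherin (0.526). These distances stand beside means over the 8 libraries of 12.1 for Fgfrl1 and 1.07 for Fgf14, and Grm5 and Cadm2 had 0 and 1 regions in H3K18ac replicate 2, where Fgf14 had 63. Nothing follows from them about shared function or control.

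Over the mouse pathway lists, 21 of 73 genes (28.8%) carried H3K18bu, 27 (37.0%) H4K12bu, 53 (72.6%) H3K18ac and 48 (65.8%) H4K12ac in both replicates, against 17.7%, 29.7%, 52.2% and 55.1% of protein-coding genes. The other secreted ligands carried neither Kbu mark (0 of 14) and the Kac marks in 4 and 3 genes. Receptors and co-receptors carried H3K18bu, H4K12bu, H3K18ac and H4K12ac in 3, 4, 9 and 7 of 10 genes, and FGF homologous factors in 1, 1, 3 and 3 of 4. Binding proteins and heparan sulfate carriers stood at 5, 3, 9 and 7 of 10, with 2, 3, 6 and 2 regions at Sdc1. Adaptors and kinases stood at 6, 11, 12 and 15 of 17, and Mapk3, which encodes the kinase ERK1, had 0, 3, 0 and 1 regions in a window of 16.2 kb. Feedback inhibitors stood at 5, 6, 11 and 8 of 12, with 2, 1, 1 and 2 regions at Dusp6, the phosphatase of ERK. Of the targets 1, 2, 5 and 5 of 6 were marked, and Ier2, an immediate early gene, carried 3, 2, 2 and 4 regions in 11.5 kb.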

How the data were processed

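CUT&Tag peak lists of 12 libraries were used as deposited. Per the submitters' processing notes and the methods, reads were trimmed (cutadapt 1.9.1), aligned with Bowtie2 2.3.1 to hg38 or mm10, and peaks were called by MACS2 2.1.0 in each library separately at p below 0.01, keeping at most 300000 peaks. The deposited values are a fold enrichment ratio over the local background of the library, its −log10 p-value and −log10 q-value, and a score for display, which was not used. All CCD841 and Kac lists lie just under the limit of 300000, so weaker regions may be missing from them, while the mouse Kbu lists are shorter.

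Overlapping peaks of a library were merged into regions (Python 3.11.15, pandas 2.3.3, numpy 2.4.6, bedtools 2.31.1). Human genes came from GENCODE 44 on GRCh38 and mouse genes from RefSeq on GRCm38.p6, all 9 matching by symbol in each. Where the mouse table gives no strand (Fgfr1 and Fgf1), both gene ends counted as a start. The pileup was solved from fold and p. Read totals are not in the lists, so no interval or detection limit is given, and whether the reads were subsampled before peak calling is not given in the sources used here. For each mouse gene, regions per 100000 regions were compared between 4 Kbu and 4 Kac libraries by a two-sided exact permutation test over 70 assignments (scipy 1.17.1), adjusted by Benjamini-Hochberg, and the scripts were tested on simulated data. Alternatives changed the window, the peaks kept, the overlap, the measure, the block and the libraries.

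The genes, pathway lists and cell type markers were chosen with earlier results of these data known. Beside the 9 genes, the text names the 2 genes of each list with the most regions per kb for each CCD841 mark, 2 for each mouse mark over all lists, and the 3 genes nearest in pattern to Fgfrl1 and to Fgf14. The markers named were chosen after their values were seen. Fgf19 and Fgfbp2 had no match in the mouse table. Mouse promoter sequences were matched for 7 of the 9 genes. One region is not reported here.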

Additional observations from a re-analysis of the deposited data

Results flagged for a closer look

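Fgf5 in the mouse intestine stood apart in 1 of the 4 Kbu libraries: H4K12bu replicate 2 held 1 region, or 1.04 per 100000 regions of the library, and the other 3 Kbu libraries held 0. The highest of 4 values thus lay farther from the rest than Dixon's 95% limit for a group of that size. With the other 3 libraries at 0, any value above 0 lies past that limit, so its usual rate of about 1 in 20 groups by chance does not apply to these counts, and the value rests on a single region.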

How the results depend on the processing

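In CCD841 the counts of 7 and 8 of the 9 genes with a region in both replicates stayed within 5 to 9 for H3K18bu and 8 to 9 for H4K12bu in every alternative run. The mouse counts moved. Keeping peaks with q below 0.05 left 0 genes for each of the 4 marks, and a pileup of at least 2, chosen after seeing the data, left 0 for H3K18bu and 1 for H4K12bu. H4K12ac fell to 2 genes without flanks or with flanks of 1 kb. Counting regions of 1 replicate, without replicate 1 or 2, gave 6 to 7 genes for H3K18bu, 8 to 9 for H4K12bu and 8 to 9 for H4K12ac, since nothing then had to be shared.

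Of the 72 comparisons of a mouse gene between Kbu and Kac under an alternative with all 8 libraries, 17 turned direction, and with the direction kept 3 lost and 3 gained an exact p under 0.05. The direction could not turn in the blocked permutations, which leave the difference as it is, and Fgf5 was at 0 with q below 0.05. Of those that turned, Fgfr2, Fgfr4 and Fgf1 by percent covered, Fgf1 at q below 0.05 and Fgfr3 at a pileup of at least 2 had an exact permutation p of 0.0286 with Kbu lower. The number of genes under 0.05, 1 as reported, became 5 by the percent of the window covered, 2 for the gene body alone and 0 to 2 when 1 library was left out. It was 0 over the same number of strongest regions, where Fgfr2 stood at 4.44 (exact permutation p = 0.114), and with permutation within residues, and in the latter the smallest p that 36 assignments allow is 0.0556. The main comparison divides by the length of a list, and the Kac lists are several times longer. The part this has in the direction of its differences was not tested. The percent covered is not scaled to that length, and it cannot by itself settle the direction for a single gene. The part of list length in its lower Kbu values was not tested either. By that measure the difference was −2.10 for Fgfr2, −1.51 for Fgfr3, −2.47 for Fgfr4, −0.509 for Fgfrl1, −2.21 for Fgf1, −1.79 for Fgf2 and −0.521 for Fgf5, in percentage points. With q below 0.05 it was −4.32 for Fgfr2, −1.26 for Fgfr3, −6.00 for Fgf1 and −0.420 for Fgf2, and with a pileup of at least 2 it was −2.40 for Fgfr2, −2.42 for Fgfr3, −11.7 for Fgf1, −0.775 for Fgf2 and −0.0964 for Fgf5. Over the same number of strongest regions, 50645 of each library, Fgf14 was 0.494. The cause of these last changes was not tested. Leaving out 1 library moved Fgf14 between −8.47 and −2.88 and turned Fgf2 (−0.247 to 1.17) and Fgf5 (−0.251 to 0.148). Fgfr2 stayed higher (3.48 to 5.47) but its exact permutation p rose to 0.0571 without H3K18bu replicate 2, H3K18ac replicate 1 or H4K12ac replicate 1. Fgfrl1 reached 0.0286 without H4K12bu replicate 1, Fgfr4 without H3K18bu replicate 1 and Fgf1 without H4K12bu replicate 2.

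With the replicate block, permuting within replicate numbers, the number of genes was 0 and Fgfr2 had an exact permutation p of 0.0556, the smallest it allows. Neither permutation alters the Fgfr2 difference of 4.77. Deviations of same-numbered libraries correlated at −0.302 to 0.0164, so the numbers do not show a pairing, and whether libraries of different marks share a mouse is not settled by them.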
